A study of Mus musculus with 8 samples.

Results

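The comparison set the livers of vitamin C treated Wrn mutant mice against the livers of untreated Wrn mutants. It used all 8 arrays of the series, 4 with treated and 4 with untreated mutants, and took the treated minus untreated difference within each replicate number from 1 to 4 for 19087 of 19087 named genes. Each array held liver RNA of a mutant in one dye and liver RNA of a wild type mouse in the other. All animals were 9 months old, mutants and wild type alike were of the strain C57Bl/6, and they were fed freely under a reversed light cycle. Both groups carried a mutant Wrn protein, so the mutation is common to the 2 sides of the comparison, and the sources used here give neither the kind of mutation nor the sex of the mice, nor the dose, route and duration of vitamin C. The series' design calls the replicates biological and independent.

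Wrn encodes a helicase of the RecQ family, an enzyme that unwinds DNA during repair, replication and telomere upkeep, and loss of the human gene causes Werner syndrome, a disorder of early ageing. Vitamin C (ascorbate) is an antioxidant and the cofactor that keeps the iron of a class of dioxygenases reduced. Mice make it in the liver, where Gulo carries out the last step, whereas humans take it up from food. Much of mouse liver expression differs between the sexes under the pattern of growth hormone release, which acts through the transcription factor STAT5. Sterol synthesis genes are held in step by the transcription factor SREBP2, which is released when cellular cholesterol is low.

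On numbers 1 and 2 the mutant RNA carried Cy5 and on numbers 3 and 4 it carried Cy3, in both groups. Both arrays of a number name the same wild type number and have the same dye orientation, so wild type RNA common to a number and a dye effect of equal size drop out of the difference. The deposited log ratios were read as log2 of mutant over wild type with the swapped arrays already turned, a reading that an earlier look at these data chose and that the sources do not settle. If the swapped arrays had not been turned, the differences of numbers 3 and 4 change sign, and those of numbers 1 and 2 stay as printed. The values under that second reading are given beside the main gene groups, and if wild type were the numerator every sign below would be exchanged. Across all genes the differences of different numbers correlated weakly, with Pearson's r between 0.00 and 0.09 over 19087 genes, and genes are not independent replicates. A difference is treated minus untreated on the log2 scale and is given as the mean of the 4 numbers ± SE. The arrays give ratios only, so liver markers could not be checked for their level, and in whole liver RNA fewer cells of a type and less RNA per cell cannot be told apart.

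No gene passed limma's moderated test at an adjusted p of 0.05 (0% of 19087 genes), and the smallest adjusted p was 0.446, for Clec2d. At an unadjusted p under 0.05, limma counted 734 genes higher in treated mice (3.85%) and 502 lower (2.63%), together 6.48%. All 4 differences lay above 0 for 1751 genes (9.17%) and below 0 for 1271 (6.66%). The 4 treated arrays stood entirely above the 4 untreated ones for 230 genes (1.21%) and entirely below for 198 (1.04%). The mean difference lay above 0 for 53.7% of all genes and below 0 for 46.3%. Counts within the gene lists below are to be read beside these shares. Since no gene passed, the values below describe these 8 arrays. The median SE of a gene was 0.16, and 4 arrays in each group limit the precision.

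Clec2d, a C-type lectin that is a ligand of natural killer cell receptors of the Klrb1 family, had the smallest p of all genes. Clec2d was measured by 1 feature. It read -1.27, -0.14, -0.76 and -1.21 on untreated arrays 1 to 4 and 0.74, 0.85, 1.25 and 0.50 on treated arrays 1 to 4. Every treated array lay above every untreated one, from below wild type to above it. The difference was 1.68 ± 0.19, or 3.20-fold, with 2.01, 0.99, 2.01 and 1.71 on the 4 numbers (adjusted p = 0.446 in limma). Of 10 measured Clec2 lectins and Klrb1 receptors, Clec2d alone had an unadjusted p under 0.05, and the list median of 0.03 was near the 0.02 of all genes. Klrb1c stood at 0.09 ± 0.16 and Clec2i at 0.50 ± 0.27, or 0.13 without number 1. Under the second reading of the swapped arrays the mean of Clec2d was -0.18.

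The other genes of smallest p on the higher side each had an adjusted p of 0.757 in limma. They included Krt6b, a keratin of stressed epithelium, at 0.94 ± 0.13, Lipg, the endothelial lipase that acts on high-density lipoprotein, at 0.82 ± 0.16, and Pde1b, a phosphodiesterase of cyclic nucleotides, at 0.77 ± 0.15. Syne3, a nuclear envelope protein that links to the cytoskeleton, read between -1.15 and -0.41 in untreated and between -0.40 and 0.23 in treated mutants. Isoc2a read between -0.43 and -0.07 in untreated and between 0.24 and 0.91 in treated mutants, and Prr32 between -1.12 and -0.35 and between -0.15 and 0.45. Those 3 genes did not overlap between the groups. Aatk, a kinase, stood at 0.91 ± 0.18.

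On the lower side, Mthfd1l, a mitochondrial enzyme that makes formate from folate-bound carbon, read 0.27, 0.32, 0.25 and 0.69 in untreated and -0.98, -0.31, -0.57 and -0.13 in treated mutants. The 2 groups did not overlap, and the difference was -0.88 ± 0.15. Malat1, a nuclear long non-coding RNA, had 4 features and read 1.48, 0.55, 0.14 and 0.78 in untreated and 0.13, 0.01, -0.73 and 0.10 in treated mutants, also without overlap, at -0.86 ± 0.17. S1pr1, a sphingosine-1-phosphate receptor that is abundant in endothelium, stood at -0.96 ± 0.18 with differences from -1.61 to -0.66. The related receptor gene S1pr3 stood at -0.37 ± 0.14. Of 14 genes of sphingosine-1-phosphate receptors and metabolism 10 lay below 0, where 46.3% of all genes did, with a list median of -0.09. Slc41a2, a magnesium transporter, stood at -0.90 ± 0.16, Tbx1, a T-box transcription factor, at -0.68 ± 0.14, and Oog2 at -0.79 ± 0.17.

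**Figure D1:**
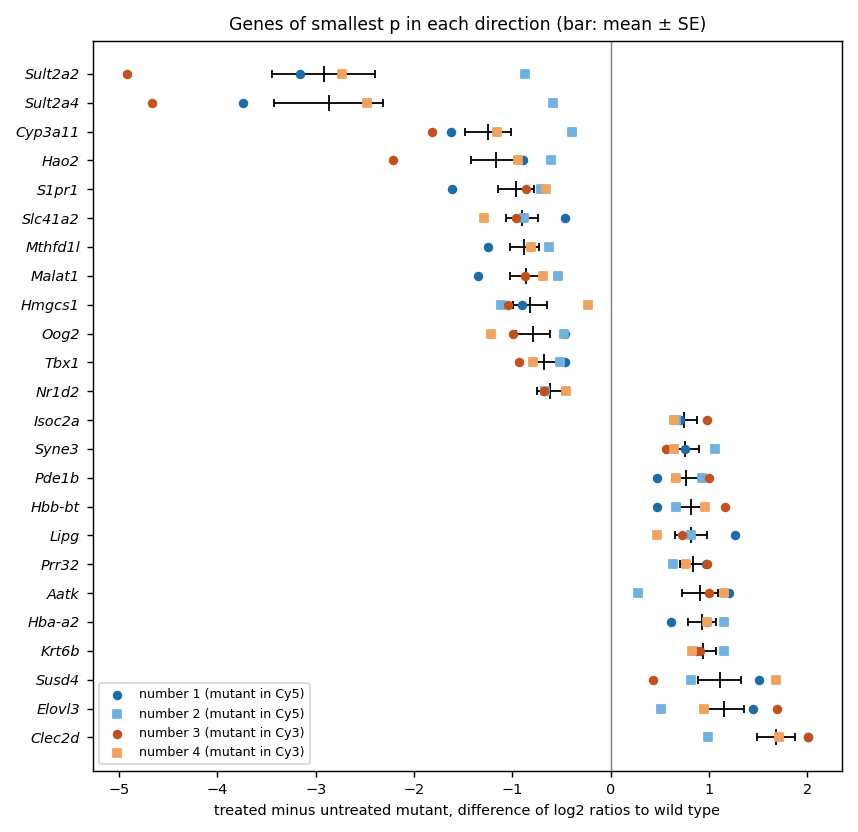
Treated minus untreated differences (log2, x axis) of the 12 genes of smallest p in each direction among genes whose 4 differences share a sign. Points are the 4 replicate numbers coloured by dye orientation, and bars are the mean ± SE. Sult2a2 and Sult2a4 reach furthest below 0, and Clec2d lies furthest above 0 in this set.

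Several of the genes with the largest differences below 0 are known to differ between female and male mouse liver. Sult2a2 and Sult2a4, sulfotransferases that add sulfate to steroids and bile acids and are higher in females, stood lowest among genes whose 4 differences share a sign. Sult2a2 read 1.69, 0.53, 0.73 and -0.46 in untreated and -1.47, -0.34, -4.19 and -3.19 in treated mutants. Treated array 2 was above the lowest untreated array, so the groups overlapped, and the difference was -2.92 ± 0.52, or 7.57-fold lower. Sult2a4 stood at -2.87 ± 0.55. The number 2 difference was the smallest for both, -0.87 for Sult2a2 and -0.59 for Sult2a4. These paralogs are near-identical and their features may bind each other's RNA, so they may be a single observation. Under the second reading of the swapped arrays the means were 0.91 and 0.70, because the differences of numbers 3 and 4, -4.92 and -2.73 for Sult2a2, then count as positive.

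Of 31 listed female-biased liver genes, 25 were measured, and 21 lay below 0 and 4 above, where 46.3% of all genes lay below 0 and 53.7% above. At an unadjusted p under 0.05, limma counted 11 of them lower and 0 higher, where 2.63% of all genes were lower. The 11 include paralogs of the Sult2a, Cyp3a and Cyp2a groups, so they are not independent of each other. The median was -0.22, beside 0.02 over all genes. A1bg read 1.59, 0.93, 0.50 and 0.91 in untreated and -0.57, 0.91, -1.15 and -0.74 in treated mutants, at -1.37 ± 0.31. Treated array 2 again lay among the untreated arrays. Hao2, a peroxisomal hydroxy acid oxidase, stood at -1.17 ± 0.25, with all 4 numbers below 0. Cux2, a repressor of male-biased genes that is itself female-specific in mouse liver, stood at -0.71 ± 0.24. Cyp2a4 and Cyp2a5, cytochrome P450 genes that hydroxylate steroids and coumarin, stood at -0.84 ± 0.32 and -0.72 ± 0.26. Without number 4 Cyp2a4 stood at -0.47 and Cyp2a5 at -0.42, and on numbers 1 and 2 alone at -0.08 and -0.14. The exceptions included Sult3a1, which differed by -1.29, 0.03, 1.41 and 1.76 on the 4 numbers.

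The Cyp3a family of cytochromes P450, which oxidise steroids, bile acids and drugs, overlaps the female-biased list. Of 6 measured members 5 lay below 0, and 4 were lower at an unadjusted p under 0.05 in limma. Over all genes 46.3% lay below 0 and 2.63% were lower at that p. The members are paralogs, so they are not independent of each other. The family median was -0.87, or 0.23 under the second reading. Cyp3a11, the most abundant member in mouse liver, read 0.98, 1.20, -0.91 and -1.33 in untreated and -0.64, 0.81, -2.73 and -2.48 in treated mutants. Each treated array lay below the untreated array of its own number while the groups overlapped, and the difference was -1.25 ± 0.23. Cyp3a41a stood at -1.62 ± 0.46, or -0.98 without number 3, Cyp3a44 at -1.10 ± 0.33 and Cyp3a16 at -0.63 ± 0.16. Cyp3a13 stood at 0.04 ± 0.19. Like Cyp3a13, Cyp3a11 and Cyp3a25 are not on the female-biased list used here. The list of CAR and PXR targets and other xenobiotic P450 genes had a median of 0.07 over 20 genes, with 0 higher and 2 lower at that unadjusted p. The 2 were Cyp2a4 and Cyp2a5.

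Male-biased liver genes lay mostly on the other side. Of 30 listed, 24 were measured and 20 lay above 0, with 7 higher and 0 lower at an unadjusted p under 0.05 in limma, where 3.85% of all genes were higher. The median was 0.19. Elovl3, an elongase of very long fatty acids, read -0.80, -0.80, -0.22 and -0.70 in untreated and 0.65, -0.29, 1.47 and 0.25 in treated mutants, at 1.15 ± 0.20. Its treated array 2 alone fell within the untreated range. Susd4, a complement regulator, read between -0.65 and -0.09 in untreated and between 0.23 and 1.45 in treated mutants without overlap, at 1.11 ± 0.22. Mup3 stood at 1.10 ± 0.24. It belongs to the major urinary proteins, whose genes are near-identical, so the single member is uncertain. Bcl6, a repressor of female-biased genes in male liver, read 2.20, 0.57, 0.52 and 0.90 in untreated and 2.85, 1.56, 1.13 and 1.30 in treated mutants, at 0.66 ± 0.15. It lay above wild type on all 8 arrays. Cyp7b1, an oxysterol hydroxylase, stood at 0.84 ± 0.27, or 0.52 without number 4.

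**Figure D2:**
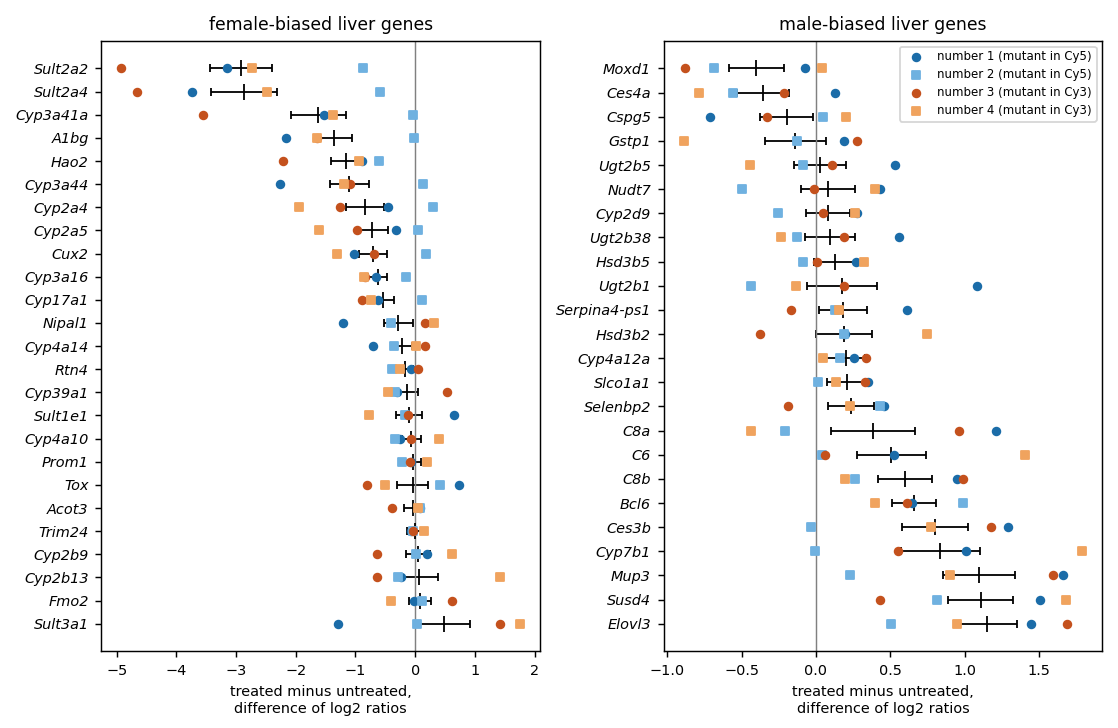
Treated minus untreated differences (log2, x axes) of the 25 measured female-biased (left) and 24 measured male-biased (right) liver genes, with points for the 4 replicate numbers and bars for mean ± SE. On the left 21 means lie below 0 and on the right 20 lie above 0, and on the left number 2 lies nearest to 0 for Sult2a2, Sult2a4, Cyp3a41a, A1bg and Hao2.

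The size of the sex-biased pattern varied by number. The female-biased median was -0.46, -0.04, -0.64 and -0.51 on numbers 1 to 4, and the male-biased median 0.53, 0.00, 0.19 and 0.22. Number 2 was the smallest in both lists, and 10 of 25 female-biased genes were above 0 there. Numbers 1 and 2 alone gave medians of -0.29 and 0.25, and numbers 3 and 4 alone gave -0.45 and 0.19, so each dye orientation had the same signs. Under the second reading the female-biased median turned to 0.13 and the male-biased one was 0.01. Leaving out each number in turn gave female-biased medians from -0.39 without number 4 to -0.19 without number 2.

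Genes of the sex chromosomes stood beside these lists as follows. Xist, the RNA of the inactive X chromosome, read 0.14, 0.56, 0.58 and -0.16 in untreated and 0.78, 0.38, -0.997 and -0.52 in treated mutants. Its differences of 0.64, -0.18, -1.58 and -0.36 had no common sign, and the mean was -0.37 ± 0.31. The Y-linked genes Eif2s3y, Kdm5d and Uty stood at 0.27 ± 0.20, -0.22 ± 0.14 and -0.05 ± 0.13. Only Ddx3x, an X-linked RNA helicase, had an unadjusted p under 0.05 among 11 measured sex chromosome genes, at -0.48 ± 0.16. That was 9.09% of the list, against 6.48% of all genes. The part of sex composition in the sex-biased lists was not tested.

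The growth hormone and STAT5 list had a median of 0.03 over 16 genes, with 2 higher and 2 lower in limma at that unadjusted p. Together they were 25% of the list, against 6.48% of all genes. Bcl6 and Cux2 were among them and also belong to the male-biased and female-biased lists, so these counts are not independent. Igfbp2, an insulin-like growth factor binding protein, stood at 0.54 ± 0.14 and was higher on 4 of 4 numbers. Socs2, a feedback inhibitor that STAT5 induces, stood at -0.70 ± 0.22 and was lower on 4 of 4 numbers. Igfbp1, a binding protein that insulin represses, differed by -1.37 on number 1 and by 1.96, 2.09 and 2.13 on the others, at 1.20 ± 0.54. The letters TTCNNNGAA, a motif of STAT5, were found on either strand in 3 of 26 promoter windows of female-biased genes (11.5%) and 4 of 22 of male-biased genes (18.2%), against 8.3% of all windows, each window running from 250 bases before to 50 after a start in RefSeq's GRCm38.p6.

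The cholesterol synthesis pathway lay below 0 in the treated mutants on 3 of the 4 numbers. Of 20 listed enzymes 17 were measured, 15 had a mean below 0, and 8 were lower and 0 higher at an unadjusted p under 0.05 in limma, where 46.3% of all genes lay below 0 and 2.63% were lower at that p. The median was -0.40. By number it was -0.26, -0.58, -0.83 and 0.05, and on number 4, 9 of the 17 lay above 0. Each dye orientation alone gave a negative median, -0.37 for numbers 1 and 2 and -0.40 for numbers 3 and 4, and without number 3 and without number 4 it was -0.25 and -0.51. Under the second reading the median was -0.05.

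Along the pathway, Hmgcs1, which makes HMG-CoA from acetyl units, read 1.29, 1.31, 0.60 and -0.76 in untreated and 0.38, 0.20, -0.44 and -0.98 in treated mutants. It was lower on 4 of 4 numbers, with the smallest difference, -0.23, on number 4, while the groups overlapped, and its mean was -0.82 ± 0.18. Mvd, which forms isopentenyl diphosphate, stood at -0.81 ± 0.25 and Idi1, which isomerises it, at -0.90 ± 0.31. Sqle, the squalene epoxidase, read 0.86, -0.31, 1.71 and 0.36 in untreated and -1.36, -1.19, -0.57 and 0.41 in treated mutants. Its differences were -2.22, -0.89, -2.28 and 0.05, at a mean of -1.34 ± 0.37, the largest of the list. Cyp51, the lanosterol demethylase, stood at -0.60 ± 0.18, Fdps at -0.46 ± 0.19, Hsd17b7 at -0.41 ± 0.15 and Sc5d at -0.40 ± 0.16. Hsd17b7 was the only enzyme of the list whose treated and untreated arrays did not overlap. Msmo1, a sterol methyl oxidase, differed by -1.38, -1.21 and -1.28 on numbers 1 to 3 and by 0.79 on number 4.

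The 2 enzymes above 0 were Pmvk, the phosphomevalonate kinase, at 0.30 ± 0.14, and Tm7sf2, a sterol reductase, at 0.30 ± 0.13, each above 0 on 4 of 4 numbers. Of the genes that control the pathway or take up lipoprotein cholesterol, 9 were measured, with a median of -0.01. Stard4, a carrier of cholesterol between membranes and an SREBP2 target, stood at -0.63 ± 0.16 and was lower on 4 of 4 numbers. Insig1, which retains SREBP in the endoplasmic reticulum, stood at -0.50 ± 0.23, or -0.21 without number 3, and Srebf2, which encodes SREBP2, at -0.10 ± 0.16. Srebf1, the SREBP of fatty acid synthesis, stood at -0.43 ± 0.22, or -0.21 without number 3.

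**Figure D3:**
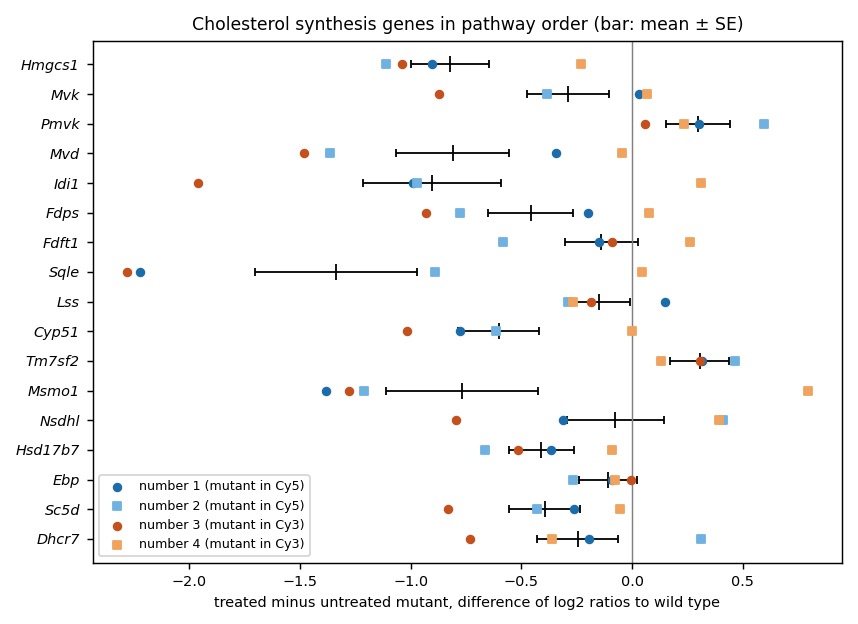
Treated minus untreated differences (log2, x axis) of the 17 measured cholesterol synthesis enzymes in pathway order from top to bottom, with points for the 4 replicate numbers and bars for mean ± SE. On numbers 1 to 3 most points lie left of 0, and on number 4, 9 of 17 lie above 0, with Msmo1 at 0.79.

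Promoters are shown for the 3 enzymes of largest difference that have an entry in the RefSeq table of the mouse assembly GRCm38.p6, from 250 bases before to 50 bases after the annotated start, read 5′ to 3′ on the gene's strand. Capitals mark CCAAT or its reverse complement ATTGG, the box bound by the factor NF-Y, and in Hmgcs1 also the sterol element TCACNCCAC, the kind of site bound by SREBP. The windows are chr13:119690101-119690400 on the plus strand for Hmgcs1, chr13:8885356-8885655 on the plus strand for Idi1 and chr8:122443373-122443672 on the minus strand for Mvd.
Hmgcs1: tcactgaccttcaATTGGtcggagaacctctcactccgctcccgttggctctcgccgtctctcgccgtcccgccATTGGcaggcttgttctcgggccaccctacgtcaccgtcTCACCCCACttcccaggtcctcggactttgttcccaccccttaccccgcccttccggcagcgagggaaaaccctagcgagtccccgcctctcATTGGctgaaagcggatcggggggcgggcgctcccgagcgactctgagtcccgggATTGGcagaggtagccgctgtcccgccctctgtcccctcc
Idi1: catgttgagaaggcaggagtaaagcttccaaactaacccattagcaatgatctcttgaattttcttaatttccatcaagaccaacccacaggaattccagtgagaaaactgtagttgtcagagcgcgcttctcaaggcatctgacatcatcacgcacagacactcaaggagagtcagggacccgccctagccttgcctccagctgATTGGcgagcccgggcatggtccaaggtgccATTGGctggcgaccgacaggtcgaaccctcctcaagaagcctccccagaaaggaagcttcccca
Mvd: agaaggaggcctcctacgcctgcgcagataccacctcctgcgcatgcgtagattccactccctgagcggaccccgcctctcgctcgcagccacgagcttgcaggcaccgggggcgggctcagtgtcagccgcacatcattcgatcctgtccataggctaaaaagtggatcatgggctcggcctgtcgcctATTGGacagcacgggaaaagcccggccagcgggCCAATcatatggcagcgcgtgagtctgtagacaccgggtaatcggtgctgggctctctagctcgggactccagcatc

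Searched on both strands, CCAAT was present in 14 of 17 windows of the 14 pathway genes with an entry, or 82.4%, against 37.4% of all 32851 windows of the same length. All 14 genes, including Pmvk and Tm7sf2, had it in at least 1 window. The sterol element TCACNCCAC was present in 1 window, that of Hmgcs1, or 5.88% against 1.24% of all windows. It was also present in 2 of 26 windows of female-biased genes (7.69%) and 1 of 22 of male-biased genes (4.55%). Sqle, Fdps and Fdft1 had no entry. These are matches of letters in a window, and binding was not measured.

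Bile acid synthesis uses the cholesterol that the liver makes or takes up. Cyp7a1, its rate-limiting hydroxylase, read -1.86, -0.09, -0.91 and -1.60 in untreated and -3.52, -1.40, -1.73 and -1.38 in treated mutants. It was below wild type on all 8 arrays and lower in treated mice on numbers 1 to 3, at -0.89 ± 0.28. Cyp8b1, the sterol hydroxylase that directs the pathway to cholic acid, read -2.26, -0.91, -0.94 and -3.43 in untreated and -1.18, -0.17, 0.19 and -0.04 in treated mutants, at 1.58 ± 0.39. It was nearer to wild type in treated mice on 4 of 4 numbers, and the mean was 0.98 without number 4. The 16 genes of the list had a median of -0.06, with 2 higher and 4 lower at an unadjusted p under 0.05 in limma. Together they were 37.5% of the list, against 6.48% of all genes. The lower ones besides Cyp7a1 were Nr1h5, a nuclear receptor that senses sterols in mice, at -0.74 ± 0.16, Klb, the co-receptor of fibroblast growth factor signals from the gut, at -0.52 ± 0.14, and Nr5a2, an activator of the pathway, at -0.33 ± 0.14. Nr1h5 did not overlap between the groups. Of 13 bile acid and organic anion transporters 9 lay below 0 and 4 were lower at that p. Over all genes 46.3% lay below 0 and 2.63% were lower. The 4 transporters included the bile salt export pump Abcb11 at -0.40 ± 0.15 and the uptake carrier Slco1a4 at -0.51 ± 0.14.

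Genes of the circadian clock had a median of 0.01 over 18 genes, with 3 higher and 3 lower in limma at an unadjusted p under 0.05. Together they were 33.3% of the list, against 6.48% of all genes. The clock repressor Nr1d2 differed by -0.68, -0.67, -0.67 and -0.45, at -0.62 ± 0.13, and its paralog Nr1d1 by -0.28, -1.75, -1.29 and -0.24, at -0.89 ± 0.26. On the higher side were Nfil3, a repressor of clock output genes, at 0.47 ± 0.16, Per1, a light and hormone responsive clock gene, at 0.38 ± 0.15, and Npas2, a partner of the clock activator, at 0.31 ± 0.13. The sources used here do not give the hour of tissue collection, and its part was not tested. Immediate early genes had 15 of 21 above 0 and 3 higher at that p, Dusp1, Nr4a1 at 0.74 ± 0.30 and Btg2 at 0.65 ± 0.16. Over all genes 53.7% lay above 0 and 3.85% were higher. Dusp1, a phosphatase of stress kinases, differed by 0.34, 0.34, 1.63 and 2.36. Gadd45g, a growth arrest and stress gene of another list, differed by 0.15, 0.09, 1.58 and 3.16. Both were large on numbers 3 and 4 and small on numbers 1 and 2. Without number 4 Dusp1 stood at 0.77, Gadd45g at 0.60 and Nr4a1 at 0.36.

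Fat and glucose metabolism gave values in both directions. Cd36, a fatty acid uptake receptor, stood at -0.97 ± 0.23 and was lower on 4 of 4 numbers. Scd1, the stearoyl desaturase, differed by 0.65, -1.56, -1.62 and -0.74, and Acly, which makes cytosolic acetyl-CoA, stood at -0.38 ± 0.14. The fatty acid and triglyceride synthesis list had a median of -0.01 over 19 genes and PPAR alpha targets a median of -0.07 over 28. At an unadjusted p under 0.05 limma counted 1 higher and 2 lower in the first list, or 15.8%. In the second it counted 2 higher and 1 lower, or 10.7%, against 6.48% of all genes. Cidec, of the second list, was among the higher ones at 0.78 ± 0.30, with -0.26 on number 1. Ppp1r3c, which directs a phosphatase to glycogen, read between -0.23 and 0.24 in untreated and between 0.28 and 1.02 in treated mutants without overlap, at 0.60 ± 0.14. G6pc, glucose-6-phosphatase, stood at 0.57 ± 0.22. Of the urea cycle and amino acid genes, Asl stood at 0.69 ± 0.22, Oat at 0.49 ± 0.15 and the ornithine carrier Slc25a15 at 0.48 ± 0.16, with a list median of 0.04 over 17 genes.

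Subunits of oxidative phosphorylation, the mitochondrial chain that makes ATP, lay slightly above 0 as a list. Of 62 measured, 52 had a mean above 0, where 53.7% of all genes did, and the median was 0.14 with quartiles of 0.08 and 0.23. All 4 differences were above 0 for 21 of the 62, where 9.17% of all genes met this. At an unadjusted p under 0.05 in limma 3 were higher, or 4.84% of the list, near the 3.85% of all genes. The 3 were Ndufb6 at 0.44 ± 0.14 and Ndufa7 at 0.42 ± 0.13, both of complex I, and Atp5d, of the ATP synthase, at 0.34 ± 0.13. Atp5d read between -0.20 and -0.06 in untreated and between 0.13 and 0.23 in treated mutants, without overlap. The list median was 0.13, 0.18, 0.24 and 0.09 on the 4 numbers, and -0.002 under the second reading. Mitochondrial ribosomal proteins had a median of 0.17 over 40 genes, 31 above 0, and cytosolic ribosomal proteins 0.14 over 49 genes, 38 above 0. At that p limma counted 3 and 7 of them as higher, or 7.5% and 14.3%, where 3.85% of all genes were higher. It counted 0 and 0 as lower. Their medians were -0.09 and 0.00 under the second reading. Mrps12 stood at 0.51 ± 0.16 and Rpl36 at 0.53 ± 0.15. The shift of all genes was 0.02.

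**Figure D4:**
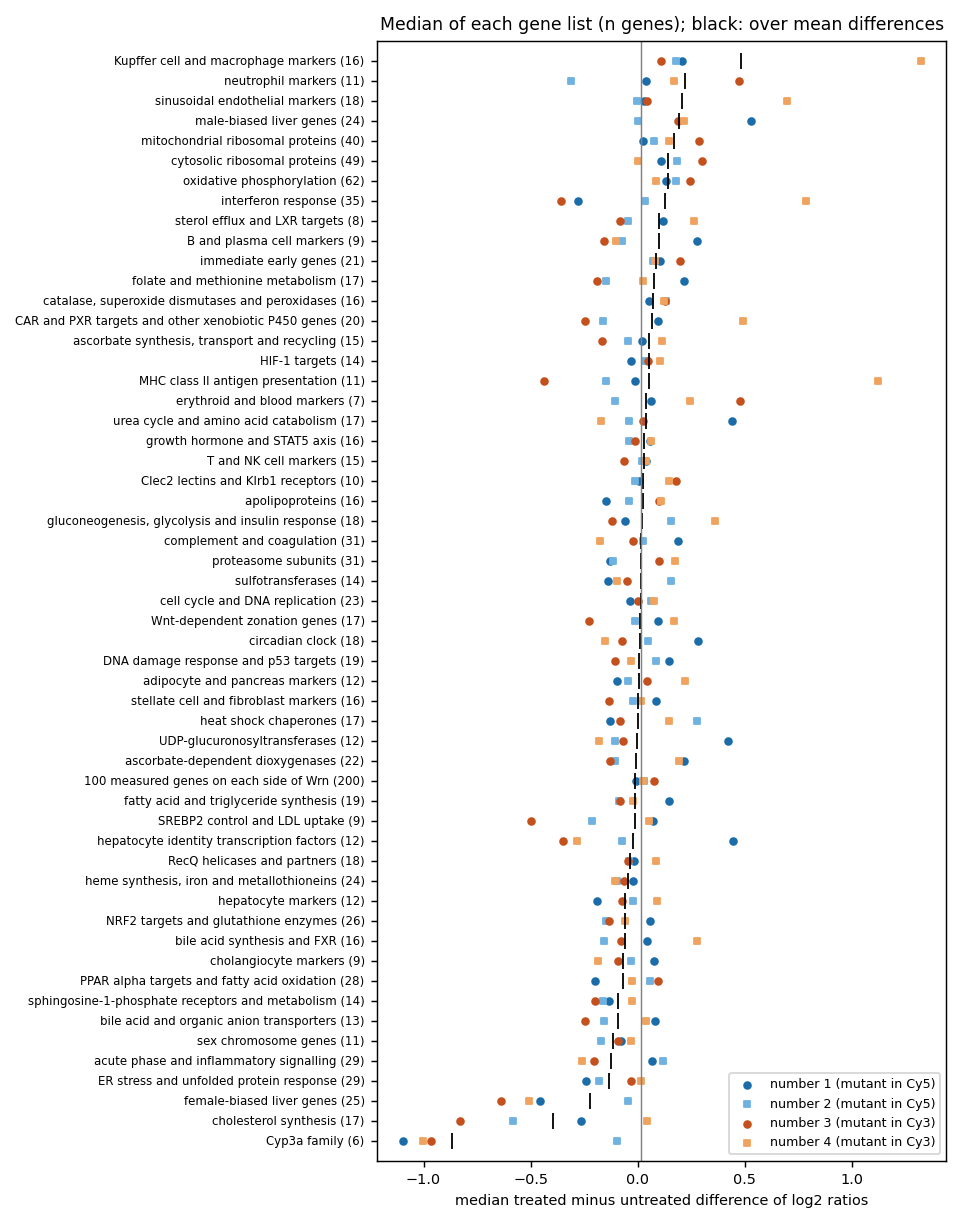
Median treated minus untreated difference (log2, x axis) of each gene list, with points for the 4 replicate numbers, black ticks for the median over mean differences and a grey line for all genes. The Cyp3a family, the cholesterol synthesis and the female-biased lists lie lowest, where under the second reading their medians were 0.23, -0.05 and 0.13, and number 4 is highest for Kupffer cell, sinusoidal endothelial, interferon and MHC class II lists.

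Wrn itself did not pass and lay near 0. Its 4 features averaged 0.31, 0.11, -0.002 and 0.34 in untreated and 0.24, 0.15, 0.29 and -0.04 in treated mutants, at -0.03 ± 0.15 (95% interval -0.38 to 0.32), and 2 of the 4 features lay on each side of 0. The part of the gene that these features cover is not given, so this does not check the mutation. RecQ helicases and their partners had a median of -0.04 over 18 genes with 0 higher and 0 lower at an unadjusted p under 0.05. DNA damage and p53 targets had a median of 0.01 over 19 genes, and 3 were higher (15.8%, against 3.85% of all genes). They were Cdkn1a, the cell cycle inhibitor p21, at 0.70 ± 0.22, Bbc3, a pro-apoptotic gene, at 0.46 ± 0.16, and Gadd45g. Bbc3 did not overlap between the groups, and Cdkn1a differed by 0.02, 0.48, 1.38 and 0.90. The 200 measured genes nearest to Wrn had a median of -0.01, with 10 higher and 7 lower, or 8.50% against 6.48% of all genes.

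The genes that handle the vitamin itself showed no member at an unadjusted p under 0.05 in limma. Gulo read 0.06, -0.28, -0.21 and -0.52 in untreated and -0.19, -0.03, -0.64 and -0.51 in treated mutants. The groups overlapped, and the difference was -0.10 ± 0.16, with a 95% interval of -0.46 to 0.26. Rgn, the gluconolactonase before it, stood at -0.11 ± 0.15 and Akr1a1, an aldehyde reductase of the same route, at 0.30 ± 0.14. The ascorbate transporters Slc23a1 and Slc23a2 stood at -0.08 ± 0.16 (95% interval -0.46 to 0.29) and 0.15 ± 0.24 (-0.41 to 0.70). The 15 genes of ascorbate synthesis, transport and recycling had a median of 0.06.

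Enzymes that use ascorbate as cofactor, listed together with the partner subunit P4hb, had a median of -0.01 over 22 genes. At that p 2 were higher (9.09%, against 3.85% of all genes) and 0 lower. The 2 were Plod3, a collagen lysyl hydroxylase, at 0.39 ± 0.14, and Egln3, an oxygen-sensing prolyl hydroxylase, at 0.48 ± 0.15, each above 0 on 4 of 4 numbers. Egln1 stood at -0.13 ± 0.13 and Tet2, a DNA demethylase, at -0.28 ± 0.15. Among catalase, superoxide dismutases and peroxidases 13 of 16 lay above 0, where 53.7% of all genes did, with a median of 0.07. Of the 16, 3 were higher and 1 lower, together 25% against 6.48% of all genes. Gpx4, which reduces lipid peroxides, read between -0.52 and 0.06 in untreated and between 0.09 and 0.42 in treated mutants without overlap, at 0.39 ± 0.15. Txnrd2 stood at 0.31 ± 0.13 and Msra at 0.37 ± 0.16, and Prdx1, an abundant peroxiredoxin, at -0.40 ± 0.14. Cat, the catalase gene, stood at -0.28 ± 0.14. Targets of NRF2 and glutathione enzymes had 18 of 26 below 0, where 46.3% of all genes lay below 0. At that p Gsta2 at -0.44 ± 0.16 and Gsta4 at -0.39 ± 0.15 were lower. Hmox1, the heme oxygenase, was higher at 0.59 ± 0.22, or 0.29 without number 4. Together these were 11.5% of the list, against 6.48% of all genes. Glutathione transferases form families of close paralogs, so single members are uncertain.

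In the endoplasmic reticulum stress list 18 of 29 genes lay below 0, where 46.3% of all genes did, with a median of -0.13. At an unadjusted p under 0.05 limma counted 3 lower, the chaperone genes Canx at -0.40 ± 0.13, Hspa5 at -0.36 ± 0.14 and Dnajb9 at -0.36 ± 0.14, and 0 higher. The 3 were 10.3% of the list, where 2.63% of all genes were lower. Canx was lower on 4 of 4 numbers. Heat shock chaperones had a median of 0.00 over 17 genes, with Hspe1 at 0.50 ± 0.14 and Hspb1 at 0.66 ± 0.21 higher. Acute phase and inflammatory genes had a median of -0.12 over 29, with Cp, ceruloplasmin, at -0.41 ± 0.13, and the median was 0.03 without number 4.

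Markers of Kupffer cells, the macrophages of the liver, lay above 0 for 14 of 16 measured genes, with a median of 0.48 and 4 higher and 1 lower at an unadjusted p under 0.05 in limma. Over all genes 53.7% lay above 0, and 3.85% were higher and 2.63% lower at that p. The difference was largest on number 4. The list median by array was 1.18, 0.60, -1.39 and 0.47 in untreated and 1.23, 1.01, -1.47 and 1.83 in treated mutants. Its difference was 0.21, 0.18, 0.11 and 1.32 on the 4 numbers, and without number 4 the median was 0.11. On number 3 the median lay below wild type in both groups and on the other numbers above it. Marco, a scavenger receptor, read 1.17, 1.00, -5.35 and 0.77 in untreated and 1.44, 1.29, -4.75 and 4.79 in treated mutants. Cd163, the receptor for haemoglobin bound to haptoglobin, differed by 0.25, 1.12, 0.98 and 1.08, at 0.86 ± 0.18, so its number 4 was not apart. The complement genes C1qa, C1qb and C1qc stood at 0.57 ± 0.19, 0.69 ± 0.26 and 0.64 ± 0.24, and at 0.35, 0.33 and 0.32 without number 4. The iron exporter Slc40a1, which macrophages and other liver cells use, stood at -0.62 ± 0.17. Under the second reading the list median was -0.31.

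**Figure D5:**
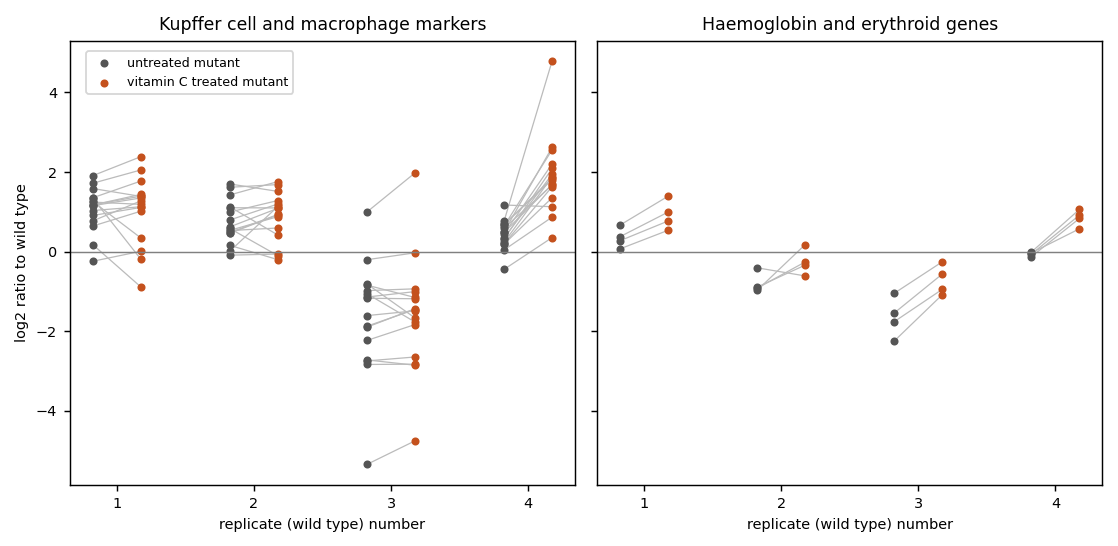
Log2 ratio to wild type (y axis) of 16 Kupffer cell and macrophage markers (left) and of the haemoglobin and erythroid genes Hba-a1, Hba-a2, Hbb-bt and Alas2 (right) on each array, with grey lines joining untreated (dark) and treated (orange) arrays of a replicate number. On the left the joined points part mainly on number 4. On the right the treated array is higher in all pairs but Alas2 on number 2. Hba-a2 and Hbb-bt were named among genes whose 4 differences share a sign, so that choice fixed their common sign. The erythroid and blood list of 7 genes had a median of 0.04, with 3 below 0.

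Other lists were also highest on number 4. Sinusoidal endothelial markers had a median of 0.21 over 18 genes, 0.04 without number 4 and 0.70 on number 4 alone. Clec1b, a lectin of that endothelium, was higher on 4 of 4 numbers at 0.69 ± 0.14, while S1pr1 was lower on 4 of 4. Interferon response genes differed by a median of -0.28, 0.03, -0.36 and 0.78 on the 4 numbers, and MHC class II genes by -0.01, -0.15, -0.44 and 1.12. Hepatocyte markers had a median of -0.06 over 12 genes, and markers of stellate cells, cholangiocytes, T and NK cells had medians of 0.00, -0.07 and 0.03, each with 0 higher and 0 lower at an unadjusted p under 0.05. Neutrophil markers had a median of 0.22 over 11 genes, with 0 higher and 2 lower at that p. B and plasma cell markers had a median of 0.10 over 9 genes, with 0 higher and 1 lower. Of all genes 2.63% were lower. The part of the cell makeup of the samples in any result was not tested.

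The haemoglobin genes Hba-a1, Hba-a2 and Hbb-bt were higher in treated mice within every number, on arrays where both groups varied together. Hbb-bh1, another haemoglobin gene of the erythroid and blood list, was not higher on every number. Hba-a2 read 0.38, -0.97, -1.54 and -0.06 in untreated and 0.99, 0.18, -0.56 and 0.92 in treated mutants. The groups overlapped, number 3 was low in both, and the paired difference was 0.93 ± 0.14. Hbb-bt stood at 0.81 ± 0.16 and Hba-a1 at 0.62 ± 0.13. Hba-a1 and Hba-a2 are near-identical copies, so they may be a single observation. Alas2, the heme enzyme of red cells, stood at 0.60 ± 0.21 with -0.20 on number 2. Hba-a1 and Alas2 belong to the list of erythroid and blood markers. Hba-a2 and Hbb-bt were named for their small p among genes whose 4 differences share a sign, so that choice fixed their common sign. The list had a median of 0.04 over 7 genes, 4 above and 3 below 0. At an unadjusted p under 0.05 in limma 2 were higher (28.6%, against 3.85% of all genes) and 0 lower. Slc4a1, the anion exchanger of red cells, stood at -0.26 ± 0.29 and Epb42, a protein of their membrane skeleton, at -0.07 ± 0.14. The list median was -0.09 and the mean of Hba-a2 -0.05 under the second reading. The part of blood left in the tissue was not tested.

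Some of the largest differences rested mostly or partly on a single array. Uba7, the enzyme that activates the ubiquitin-like protein ISG15, read -5.20 on untreated array 2 and between -0.28 and 0.05 on the other untreated arrays, and its difference of 1.77 ± 0.76 was 0.57 without number 2. Olfr1341, an olfactory receptor gene, read -4.07 on the same array, and its 1.25 ± 0.54 was 0.39 without number 2. Mmd2 differed by -0.67, -0.72, -0.72 and -2.45, at -1.14 ± 0.30. By contrast, Slamf9, a receptor of immune cells, was higher on 4 of 4 numbers, by 0.37 to 3.12, at 1.86 ± 0.38. Serpina7, which carries thyroid hormone in blood, stood at -1.23 ± 0.27, and its untreated array 1 at 2.83 was far above the other 3, which lay between -0.37 and -0.01.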

How the data were processed

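Liver RNA of 9-month-old mice was hybridised on 8 two-colour arrays. The table that the authors deposited holds a log ratio per array for each of 45220 features, with no missing value, and was read here as log2 values of mutant over wild type. Limma is named, with no role or version, per the submitters' processing notes. The sources used here do not give the log base, the direction, the normalization or the background correction. Array medians between -0.005 and 0.005 show centred values. The table has no intensity, so dim, saturated or control features could not be left out.

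In GEO's platform annotation 33653 features had a single gene symbol, 56 had several and 11511 had no symbol. Entrez numbers of 33517 features were found in the RefSeq table of GRCm38.p6, and 0 symbols changed. Averaging the features of each gene left 19087 genes, of which 8343 had over 1 feature. Features of a named gene can disagree, and the SE does not show this. Those of Wrn, Slc23a1, Fdft1, Lss, Nsdhl and Srebf2 among others differed in sign.

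The 4 within-number differences per gene were fitted in R 4.3.3 with limma 3.58.1 (lmFit, then eBayes), with 3 residual degrees of freedom, and Benjamini-Hochberg adjusted over all genes. The fit was tested on simulated data. The numbers pair the arrays because both arrays of a number carry the same wild type number. Their deviations from the group means correlated at 0.38, 0.32, 0.51 and 0.34, and dye orientation alone could give part of this. With the dye term removed as well the correlations were 0.00, 0.03, 0.24 and 0.20. No 2 arrays held identical values.

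The members and lists were chosen with earlier results of these data known, and so was the reading of the swapped arrays. Genes were named by rule: the 12 of smallest p in each direction among those whose 4 differences share a sign, the 8 of largest mean difference in each direction among those, up to 4 members per list in the direction of its median and up to 2 in the other, and always Wrn, Gulo, Rgn, Slc23a1, Slc23a2, the cholesterol synthesis enzymes and 5 sex chromosome genes. Listed genes that are not on the array under a single symbol were not analysed here. Alternatives were the second reading, fits without the replicate block, leaving out each number, centring, scaling, other ways to combine features, robust moderation, and each dye orientation alone.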

Additional observations from a re-analysis of the deposited data

Results flagged for a closer look

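With 4 differences per item, the number farthest from the others was compared with the whole range of the 4, and 11 of 106 lists and genes stood apart by Dixon's 95% critical value. Chance alone flags about 5% of such groups, the items share arrays and members, and no cause was tested.

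On number 4 the Kupffer cell and macrophage median was 1.32, where the other numbers lay between 0.11 and 0.21, and the sinusoidal endothelial median was 0.70, where the others lay between -0.001 and 0.04. Also on number 4, Marco differed by 4.02, Cyp8b1 by 3.39, Msmo1 by 0.795, Nr1d2 by -0.45 and Mmd2 by -2.45. Number 2 stood apart for the Cyp3a family, with a median of -0.10 against -1.09 to -0.97 on the others, and for Olfr1341, with 3.81. Number 3 stood apart for Isoc2a, with 0.98. Number 1 stood apart for catalase, superoxide dismutases and peroxidases, with a median of 0.053 against 0.125 to 0.134 on the others.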

How the results depend on the processing

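No gene passed at an adjusted p of 0.05 under any alternative tried. The number of genes at an unadjusted p under 0.05 in limma, 1236 with the replicate block, was 821 under the second reading of the swapped arrays (45.2% of them higher, against 59.4%), 817 without the replicate block with a dye coefficient and 547 without both. Leaving out each number in turn gave 934 to 1209, centring gave 1220 with 53.8% higher, and the other alternatives stayed within 1.5 times. The count of genes with all differences on one side, 3022, is bound to grow with fewer differences: it was 5157 to 5513 with 3 of them, 9943 for numbers 1 and 2 only and 10037 for numbers 3 and 4 only, settings chosen after seeing the data.

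Under the second reading the female-biased median was 0.127 and the oxidative phosphorylation median -0.002, and 23 of 35 leading genes, 190 of 338 named genes and 30 of 55 list medians changed sign. The sign thus depends on the reading, which the sources do not settle. The leading genes were chosen because their 4 differences share a sign under the main reading. For them the sign under the second reading therefore shows only which dye orientation had the difference of larger size. The count of leading genes that changed sign cannot tell which reading is right. The fits without the replicate block and with robust moderation have the same mean difference by construction, so they cannot change a sign. Under centring, scaling and the other combinations of features, 0 of 35 leading genes changed sign. For leaving out a number and for either dye orientation alone, their choice by 4 differences of one sign fixes the sign. Of the list medians, 10 to 17 of 55 changed sign when a number was left out. The missing intensities leave signal over background unknown.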
